A study of Rattus norvegicus with 6 samples.

Results

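The 9 genes described here encode heat shock proteins and chaperones: Hspa5, Hspa8, Hsp90aa1, Hsp90ab1, Hspb1, Dnajb1, Hspd1, Hspe1 and Hsph1. They were chosen by symbol, each symbol matched 1 row of the feature table, and they make up 9 of 30452 genes in the deposited matrix. Hippocampi of male rats came from 3 control animals and from 3 animals whose whole brain had received 20 Gy, all dissected 2 months later and digested at 37 °C for 20 min. Dead cells were removed with beads, no cells were sorted, and transcripts were counted with unique molecular identifiers (UMIs) on the Chromium 3′ v3 platform. The 6 libraries are told apart by the suffix of each barcode, 1 to 6, and 0 of them could be tied to a labelled sample. Irradiated and control rats are therefore not compared, no conditions or classes were tested against each other and no p-value is given. The matrix was treated as 1 sample, and each library's value is given without a group.

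Chaperones bind proteins that are not yet folded, or have lost their fold, and release them in cycles driven by ATP. HSP70 proteins take up short exposed stretches with the help of J-domain proteins of the HSP40 family and of exchange factors such as HSP110, HSP90 proteins act on nearly folded clients such as kinases and steroid receptors, and small heat shock proteins hold unfolded chains without using ATP. Many of these genes are turned on by the heat shock factor HSF1, which binds repeats of the letters GAA and TTC, while the chaperone of the endoplasmic reticulum belongs to the unfolded protein response. Brain cells, microglia among them, are known to turn on heat shock and immediate early genes when tissue is dissociated warm with enzymes.

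Promoters of 8 of the 9 genes were found in the RefSeq promoter table (assembly GRCr8), which holds 250 bases before and 50 after each gene's start. They are shown as the sequences known to carry HSF1 and unfolded protein response elements, and nothing about levels is read from them. The 250 bases before the start were searched on both strands for GAANNTTC, for TTCNNGAA, for the run of both in which GAANNTTC goes on with NNGAA, for the element of unfolded protein response genes, in which CCAAT is followed after 9 bases by CCACG, and for TATAAA. GAANNTTC stood in 6 of the 8 promoters and in 7.23% of 33465 promoters of the table. The longer run, which overlaps both shorter patterns, stood in 4 of the 8 and in 0.663% of all promoters. The pair of CCAAT and CCACG stood in 1 of the 8, that of Hspa5, and in 0.0657% of all. Capitals mark the letters that matched 1 of the first 4 patterns, and each run is written 5′ to 3′ on the strand of its gene.
Hspa5, chr3:38452961-38453003, plus strand: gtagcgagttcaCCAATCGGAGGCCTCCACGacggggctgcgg
Hspa8, chr8:50080289-50080483, plus strand: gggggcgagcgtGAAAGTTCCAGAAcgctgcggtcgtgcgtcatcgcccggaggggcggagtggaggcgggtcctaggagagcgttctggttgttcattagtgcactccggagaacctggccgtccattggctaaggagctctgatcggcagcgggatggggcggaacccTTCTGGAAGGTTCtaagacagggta
Hspb1, chr12:26432391-26432442, minus strand: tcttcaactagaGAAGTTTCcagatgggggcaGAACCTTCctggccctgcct
Dnajb1, chr19:41431142-41431164, minus strand: tcgggaggggcgGAAGGTTCtgg
Hspd1, chr9:64084250-64084287, minus strand: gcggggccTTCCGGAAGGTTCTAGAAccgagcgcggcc
Hspe1, chr9:64084250-64084291, plus strand: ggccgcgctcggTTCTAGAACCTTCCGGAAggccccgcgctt
Hsph1, chr12:10427251-10427356, plus strand: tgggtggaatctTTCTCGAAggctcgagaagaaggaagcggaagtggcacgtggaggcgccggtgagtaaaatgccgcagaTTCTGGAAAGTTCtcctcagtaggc

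Hspd1 and Hspe1 lie head to head on chromosome 9, with 289 bases between their starts, so that both runs show the same matched letters from opposite strands. The counts of members with GAANNTTC and with the longer run therefore include this stretch for both genes. Hsp90ab1 had a promoter entry without any of these patterns, which says only that the letters are not in this window, and Hsp90aa1 is named only. TATAAA stood in 0 of the 8 promoters and in 12.9% of all. A match is a run of letters and not a measured binding site.

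After filters on depth and mitochondrial share and removal of likely doublets, 44800 cells with a median of 4968.5 UMIs remained. Cells were grouped into 33 clusters, of which 29 could be named from marker genes. Values below are given for 13 classes of at least 50 cells, the largest being microglia-like cells (21051), astrocyte-like cells (11904) and macrophage-like cells marked by Lyz2 and Clec7a (6899). The last class had 2, 1 and 0 cells in libraries 1, 2 and 3, and carried the summed microglia markers at 55.4% of their level in microglia-like cells. Microglia-like cells of libraries 1 and 2 lay mostly in clusters 0 and 1, those of library 3 in clusters 2 and 5, and those of libraries 4, 5 and 6 in cluster 4. Library 3 also held 97.9% of the cells of astrocyte-like cluster 11, and library 4 held 99.0% of those of astrocyte-like cluster 12. Barcode sequences found in more than 1 library numbered 410. Levels are given as CPM, the UMIs of a gene per 1000000 UMIs of the class, and are compared for 1 gene across cells, never between genes.

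The 9 genes together gave 2488808 of 256591586 UMIs in kept cells, or 0.970%. Their summed level was 4379 CPM in astrocyte-like, 11276 in microglia-like, 15014 in Lyz2 Clec7a macrophage-like, 15647 in border macrophage-like cells. The highest sum, 16381 CPM, was that of T or NK cell-like cells. Astrocyte-like cells had the lowest sum of the named classes of at least 50 cells. Non-immune classes also lay above them, at 9005 CPM in neuroblast-like, 8936 in mature oligodendrocyte-like and 7504 in pericyte, smooth muscle or fibroblast-like cells. Endothelial-like cells had 6901 CPM, and oligodendrocyte precursor-like or committed cells 6600. Neutrophil-like cells (7821 CPM) and B cell-like cells (8883 CPM) lay below neuroblast-like and mature oligodendrocyte-like cells. In microglia-like cells the sum lay between 9058 and 12507 over the 6 libraries, and in astrocyte-like cells between 3192 and 4800, so the ranges did not overlap.

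**Figure D1:**
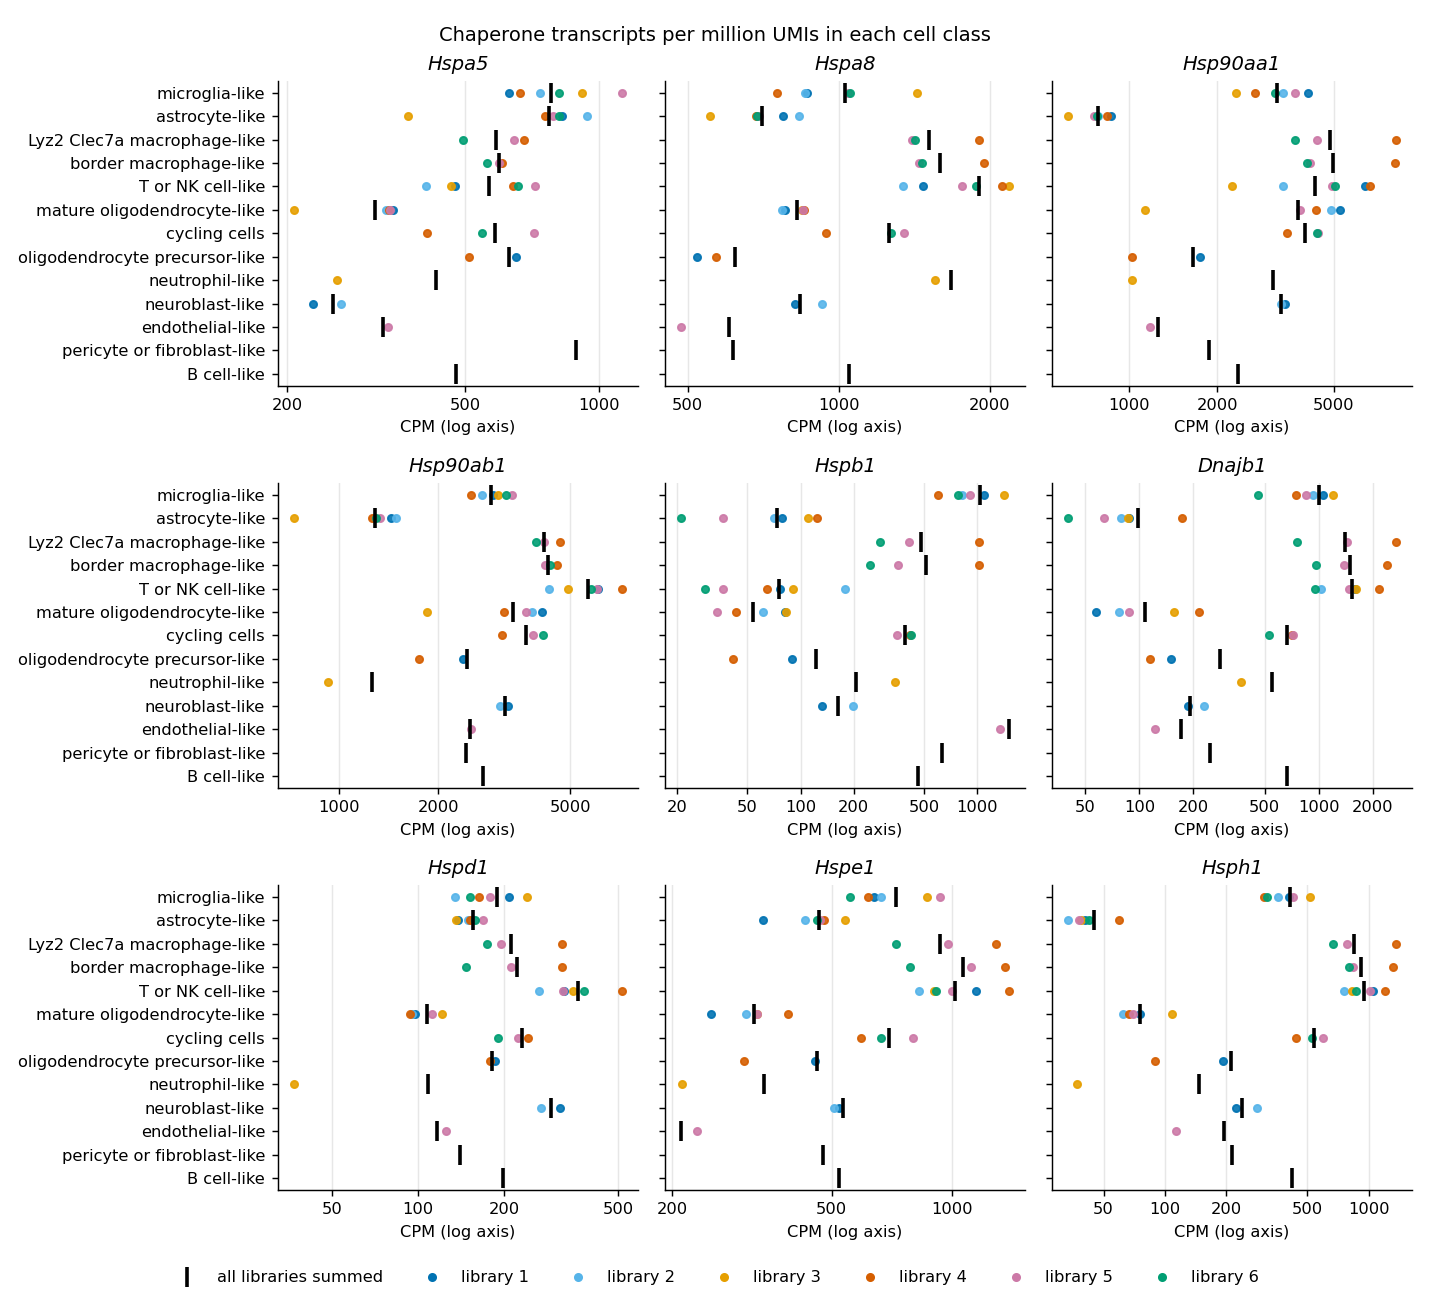
Level of each gene in 13 cell classes, in CPM on a log axis; black bars give all libraries summed and points single libraries with at least 50 cells of the class. Hspb1 spans the widest range (1517 CPM in endothelial-like and 53.5 in mature oligodendrocyte-like cells) and Hspa8 the narrowest (1903 in T or NK cell-like and 604 in endothelial-like cells).

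Hsp90aa1 and Hsp90ab1 encode the stress-inducible and the constitutive form of cytosolic HSP90. Hsp90aa1 was highest in border macrophage-like cells, at 4958 CPM (95% Poisson interval 4891 to 5025), and lowest in astrocyte-like cells, at 786 CPM (779 to 792), a 6.31-fold difference. Mature oligodendrocyte-like cells, which make myelin, carried 3768 CPM of Hsp90aa1. In that class library 3 stood low for Hsp90aa1, at 1135 CPM, while libraries 1, 2, 4 and 5 held 5267, 4895, 4334 and 3833. Hsp90ab1 was highest in T or NK cell-like cells, at 5666 CPM, and lowest in neutrophil-like cells, at 1259. Neutrophil-like cells were few (197) and shallow, with a median of 1222 UMIs. The libraries' ranges overlapped for 6 of 6 neighbouring classes that could be compared in the order of Hsp90aa1, and for 6 of 6 in that of Hsp90ab1.

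Hspa8 encodes the constitutive HSP70 of the cytosol, Dnajb1 an HSP40 that delivers clients to it, and Hsph1 an HSP110 that exchanges its nucleotide. All 3 were highest in T or NK cell-like cells, with Hspa8 at 1903 CPM, Dnajb1 at 1535 and Hsph1 at 945. Their lowest classes differed. Hspa8 fell no further than 604 CPM, in endothelial-like cells, 3.15-fold below its highest class. Dnajb1 was at 98.9 CPM in astrocyte-like cells, 15.5-fold below its highest class. Hsph1 was at 45.0 CPM in astrocyte-like cells, a 21.0-fold difference from its highest class. The partners of HSP70 thus differed between classes by larger factors than Hspa8 itself. Dnajb1 and Hsph1 were also low in mature oligodendrocyte-like cells, at 107 and 75.8 CPM, a class in which Hspa8 was at 827. For Hsph1, 3 of 5 neighbouring classes had library ranges that did not overlap, against 0 of 5 for Dnajb1 and 1 of 6 for Hspa8.

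Hspb1 encodes HSP27, a small heat shock protein that holds unfolded chains and binds actin. It was highest in endothelial-like cells, at 1517 CPM (1434 to 1603), followed by microglia-like cells at 1041 and pericyte, smooth muscle or fibroblast-like cells at 633. It was lowest in mature oligodendrocyte-like cells, at 53.5 CPM, 28.3-fold below endothelial-like cells. T or NK cell-like cells had 75.5 CPM of Hspb1, although they had the highest level of Dnajb1, Hspa8 and Hsph1. After thinning each cell to 2000 UMIs, 15.4% of 91 endothelial-like cells lacked an Hspb1 UMI, against 88.0% of 766 T or NK cell-like cells. The class was small, and only library 5 held at least 50 endothelial-like cells, with Hspb1 at 1342 CPM.

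Hspd1 and Hspe1 encode HSP60 and HSP10, the barrel and the lid of the mitochondrial chaperonin, and share the upstream region printed above. Hspd1 ranged from 361 CPM in T or NK cell-like cells to 108 in mature oligodendrocyte-like cells. Hspe1 ranged from 1063 CPM in border macrophage-like cells to 210 in endothelial-like cells. The ratio of Hspd1 to Hspe1 UMIs had a median over libraries of 0.27 in microglia-like cells (0.19 to 0.32), 0.35 in astrocyte-like cells (0.25 to 0.41) and 0.24 in Lyz2 Clec7a macrophage-like cells (0.20 to 0.25). The range of microglia-like cells overlapped both others, while the macrophage-like cells ended at 0.248 and the astrocyte-like cells began at 0.250. In neuroblast-like cells of libraries 1 and 2 the ratio was 0.60 and 0.53, above those ranges. Oligodendrocyte precursor-like or committed cells of library 4, at 0.59, and endothelial-like cells of library 5, at 0.54, were above them too. The oligodendrocyte precursor-like or committed cells of library 1, at 0.41, were level with the top of the astrocyte-like range.

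Hspa5 encodes BiP, the HSP70 of the endoplasmic reticulum and a classical target of the unfolded protein response. It was highest in pericyte, smooth muscle or fibroblast-like cells, which secrete matrix, at 885 CPM (781 to 999), and lowest in neuroblast-like cells, at 253, a 3.50-fold difference. The highest class held only 79 cells and reached 50 in no library, so its place could not be compared over libraries. Microglia-like cells of library 5 alone stood higher, at 1124 CPM. It was almost level between microglia-like cells (779 CPM) and astrocyte-like cells (772 CPM). The libraries' ranges overlapped for 7 of 7 neighbouring classes that could be compared.

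The first class comparison set astrocyte-like against microglia-like cells. Of the 9 genes, 5 were lower in astrocyte-like cells by a log2 ratio of at least 1 (10 CPM added to both levels), and 0 were higher. Over all 9684 genes with a mean of at least 10 CPM, 12.9% were that much lower and 19.0% that much higher. That mean was taken over the 13 classes and not over this pair alone. The set therefore holds genes almost absent from both classes, which could not be counted, and leaves out some genes that differ between them. The median log2 ratio was -1.17 over the 9 genes and 0.15 over all genes. The 5 lower genes were Hspb1, Dnajb1, Hsph1, Hsp90aa1 and Hsp90ab1.

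Over the 6 libraries, Dnajb1 had a lowest, median and highest level of 458, 895 and 1202 CPM in microglia-like cells, and of 40.0, 82.9 and 173 in astrocyte-like cells. The ranges did not overlap, and the log2 ratio was -3.22, or 10.1-fold lower in astrocyte-like cells. Hspb1 gave 603, 865 and 1413 CPM in microglia-like cells and 21.1, 74.6 and 123 in astrocyte-like cells. The log2 ratio of Hspb1 was -3.66, or 14.2-fold lower, and its ranges did not overlap either. Hsph1 gave 306, 382 and 518 CPM in microglia-like and 33.5, 39.5 and 59.5 in astrocyte-like cells, with a log2 ratio of -2.94, or 9.17-fold lower. Hsp90aa1 gave 2319, 3262 and 4075 CPM in microglia-like and 620, 782 and 868 in astrocyte-like cells, with a log2 ratio of -2.02. Hsp90ab1 gave 2512, 2974 and 3343 CPM in microglia-like and 733, 1318 and 1484 in astrocyte-like cells, with a log2 ratio of -1.17. Together with Hspe1, 6 of the 9 genes had every library of astrocyte-like cells below every library of microglia-like cells, beside 22.7% of all genes, and 0 had the opposite order, beside 36.6%.

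Within libraries, 7 of the 9 genes were lower in astrocyte-like cells in 6 of 6 libraries, beside 29.7% of all genes, and 0 were higher in 6 of 6, beside 45.5%. These were the 5 genes above with Hspa8 (log2 -1.36 to -0.04) and Hspe1 (-0.98 to -0.27). Hspa5 was higher in astrocyte-like cells in 3 libraries and lower in 3, between -1.27 in library 3 and 0.39. Hspd1 was higher in 2 and lower in 4. Hspa5 of the endoplasmic reticulum and Hspd1 of the mitochondrion thus had no fixed order between these classes.

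Shares of cells with a UMI were taken as well. After thinning, which left out 1114 microglia-like and 2377 astrocyte-like cells with fewer than 2000 UMIs, 57.6% of microglia-like cells held a Dnajb1 UMI (exact 95% binomial interval 56.9 to 58.2%) and 17.5% of astrocyte-like cells (16.7 to 18.3%). Without thinning the shares were 71.3% and 38.9%, at median depths of 4867 and 5989 UMIs. For Hspa8 and Hspe1 the shares did not keep the order of the CPM. In library 1, for instance, 70.2% of microglia-like and 76.4% of astrocyte-like cells held an Hspa8 UMI after thinning, and in library 4 the shares for Hspe1 were 53.7% and 57.6%. No order is read from these shares. None of the classes is known to lack these genes, so no class gives a background for such a share.

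**Figure D2:**
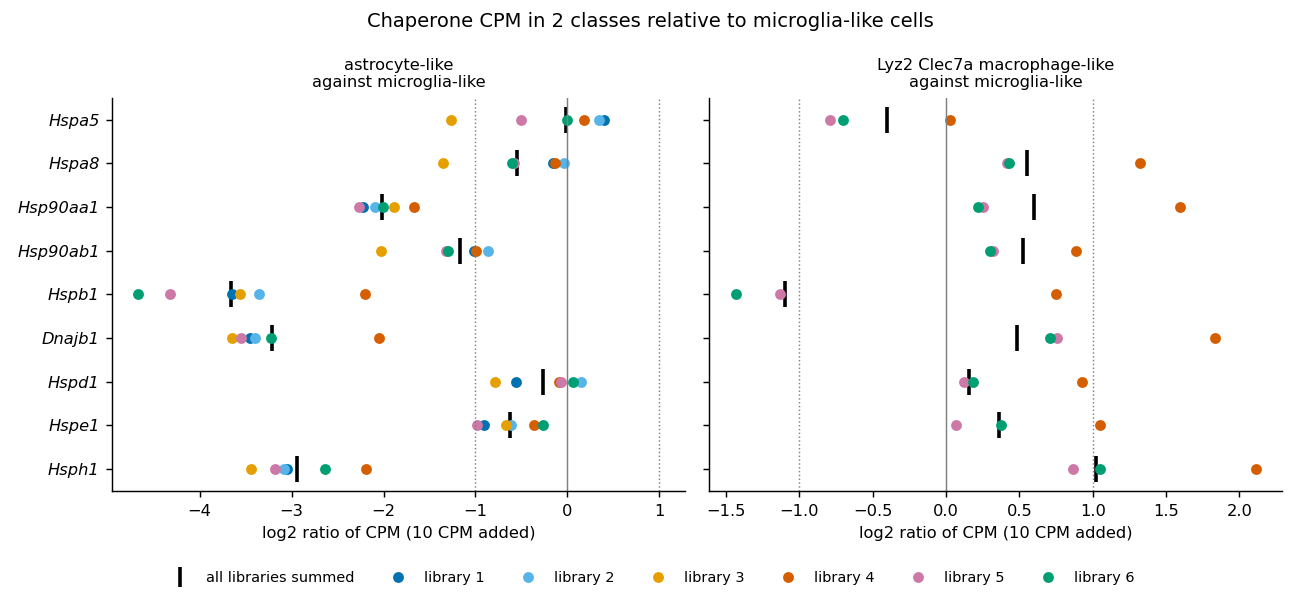
Log2 ratio of CPM (10 CPM added) of each gene in astrocyte-like (left) and Lyz2 Clec7a macrophage-like cells (right) relative to microglia-like cells; black bars give all libraries summed, points single libraries with at least 50 cells of both classes, and dotted lines a log2 ratio of 1 in either direction. In the left panel Dnajb1 lies between -3.65 and -2.05 over the 6 libraries and Hspa5 between -1.27 and 0.39, and library 4 lies to the right of libraries 5 and 6 for each gene in the right panel.

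Other measures moved with this difference. The summed level of 18 immediate early and dissociation genes, such as Ier3, Klf2 and Atf3, was 18077 CPM in microglia-like and 1191 CPM in astrocyte-like cells, and 16 of 17 tested were lower in astrocyte-like cells by a log2 ratio of at least 1. The median mitochondrial share was 5.67% of UMIs in microglia-like and 12.3% in astrocyte-like cells. Their part in the result was not tested. The 13 microglia markers summed to 1246 CPM in astrocyte-like cells (543 to 1831 over libraries), 4.73% of their level in microglia-like cells, with 9 of 13 at 10 CPM or more and 1 at 0. The part of microglial RNA in astrocyte-like barcodes was not tested. With CPM computed without mitochondrial genes, an alternative chosen after seeing the data, 5 genes were again lower and 0 higher.

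Library 4 had the highest Dnajb1 level of astrocyte-like cells, and cluster 12, with 934 of its 4017 astrocyte-like cells, carried microglia markers at 7660 CPM. The other astrocyte-like clusters carried them at 769 to 1919 CPM. Dnajb1 in astrocyte-like cells of library 4 was 173 CPM with and 85.1 without that cluster. Hspb1 was 123 CPM with and 49.4 without it, and Hsph1 59.5 with and 43.9 without it. Leaving out the cluster, which was decided after seeing the data, again left 5 genes lower in astrocyte-like cells.

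The second comparison set Lyz2 Clec7a macrophage-like against microglia-like cells. Of the 9 genes, 1 was higher by a log2 ratio of at least 1, Hsph1 at 1.03, and 1 was lower, Hspb1 at -1.10. Among all 9684 genes 4.34% were that much higher and 4.14% that much lower, so 1 of 9 in either direction is a count of single genes near the line. The log2 ratio was 0.55 for Hspa8, 0.60 for Hsp90aa1, 0.53 for Hsp90ab1, 0.48 for Dnajb1, 0.36 for Hspe1, 0.16 for Hspd1 and -0.40 for Hspa5. The median over the 9 genes was 0.48, and over all genes 0.02. In libraries 4, 5 and 6, the 3 with at least 50 cells of both classes, 7 of the 9 genes were higher in each library, beside 28.5% of all genes, and 0 were lower in each, beside 36.4%. Hspb1 and Hspa5 had no fixed sign. The 3 libraries of macrophage-like cells lay above all 6 of microglia-like cells for 2 genes, Hsp90ab1 and Hsph1 (12.6% of all genes), and below them for 0 (15.7%).

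Hsph1 was at 1362, 779 and 667 CPM in Lyz2 Clec7a macrophage-like cells of libraries 4, 5 and 6, and at 306, 423 and 317 CPM in the microglia-like cells of the same libraries. Each of the 3 libraries was higher for Hsph1 in the macrophage-like cells, by a log2 ratio of 2.12, 0.87 and 1.05. Without library 2, and without library 4, the count of higher genes was 0. Hspb1 was at 1021, 411 and 281 CPM in the macrophage-like cells and at 603, 913 and 778 CPM in the microglia-like cells. It was higher in library 4 and lower in libraries 5 and 6, and it was no longer counted as lower without library 3, without library 6, or with libraries 4, 5 and 6 alone. The immediate early list also stood higher in the macrophage-like cells, at 30690 CPM, and its part was not tested.

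Levels also varied between libraries within a class. In microglia-like cells 2 of the 9 genes differed by a log2 range of at least 1 between the highest and the lowest library, Dnajb1 (1.37) and Hspb1 (1.21). Of 7806 genes tested 13.1% ranged as widely, and of those at 100 CPM or more 23.2%. The count depended on which cells were taken as microglia-like. It was 6 with a mitochondrial limit of 10%, where 33.0% of genes at 100 CPM or more ranged as widely, and 7 with the chaperone and immediate early lists left out of the clustering genes, where 32.1% did. Dnajb1 was at 1055, 934, 1202, 750, 855 and 458 CPM from library 1 to library 6, with library 6 lowest. Hspb1 was at 1099, 816, 1413, 603, 913 and 778 CPM, with library 3 highest and library 4 lowest. The count was 1 without library 3, 1 without library 4 and 1 without library 6. Since libraries drew their microglia-like cells from different clusters, named above, these values compare libraries and clusters together.

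In astrocyte-like cells 4 of the 9 genes had a log2 range of at least 1, beside 6.55% of 8660 genes and 9.15% of those at 100 CPM or more. They were Hspb1 (2.10), Dnajb1 (1.87), Hspa5 (1.30) and Hsp90ab1 (1.01). Without cluster 12, which carried microglia markers, the count was 3, since the range of Dnajb1 was then 0.96. Hspa5, in BiP's role in the endoplasmic reticulum, was at 826, 937, 374, 756, 788 and 811 CPM from library 1 to library 6. Library 3 was the lowest for Hspa5 and also for Hsp90ab1, at 733 CPM beside 1258 to 1484 elsewhere. Without library 3 the count was 2. In library 3, 1146 of 1529 astrocyte-like cells were in cluster 11, and the median depth of the class was 3634 UMIs, the lowest of the 6 libraries. The part of depth in these values was not tested.

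Lyz2 Clec7a macrophage-like cells could be compared in libraries 4, 5 and 6. There 4 of the 9 genes had a log2 range of at least 1, beside 2.47% of 7937 genes and 7.15% of those at 100 CPM or more: Dnajb1 (1.83), Hspb1 (1.82), Hsp90aa1 (1.15) and Hsph1 (1.02). The count was 0 without library 4, 4 without library 5 and 1 without library 6. It thus rests on both ends, since library 4 was the highest and library 6 the lowest for each of the 4. Library 6 was the lowest for 8 of 9 genes in this class. Dnajb1 was at 2705, 1448 and 754 CPM, and Hsp90aa1 at 8158, 4399 and 3679 CPM. Library 4 was the highest for 9 of 9 genes in this class and for 9 of 9 in border macrophage-like cells. The same library, among microglia-like cells, was the highest for 0 genes and the lowest for 4. In T or NK cell-like cells it was the highest for 6. Library 4 thus stood high in both macrophage-like classes and not in microglia-like cells. Its Lyz2 Clec7a macrophage-like cells differed in other measures too. Their own markers summed to 11310 CPM, beside 20083 and 24213 in libraries 5 and 6, and astrocyte markers to 3857 CPM, beside 2025 and 2026. The median mitochondrial share was 10.9%, beside 8.01% and 8.31%. Immediate early genes in Lyz2 Clec7a macrophage-like cells summed to 40563, 32649 and 24430 CPM in libraries 4, 5 and 6, in the same order as Dnajb1. The part of these measures in the result was not tested.

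**Figure D3:**
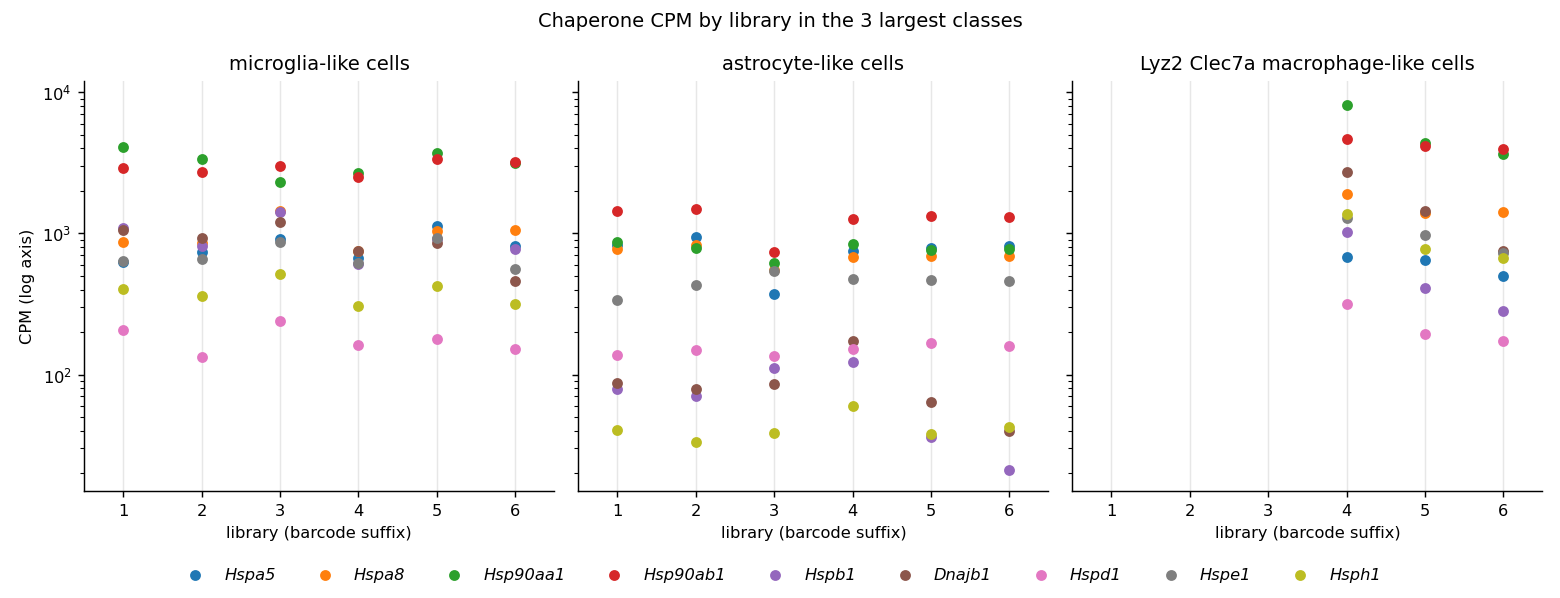
Level of each gene by library (barcode suffix 1 to 6) in microglia-like, astrocyte-like and Lyz2 Clec7a macrophage-like cells, in CPM on a log axis; libraries with fewer than 50 cells of a class are not drawn. In the right panel library 4 is highest for all 9 genes, with Dnajb1 at 2705 CPM beside 1448 and 754.

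The ratio of Hsp90aa1 to Hsp90ab1 UMIs follows the inducible against the constitutive form within the same cells. It was 1.39, 1.24, 0.77, 1.07, 1.11 and 0.98 in microglia-like cells from library 1 to library 6. In astrocyte-like cells it was 0.60, 0.53, 0.85, 0.67, 0.57 and 0.60. Library 3 had the lowest ratio in microglia-like cells and the highest in astrocyte-like cells. It was also lowest in library 3 in T or NK cell-like cells, at 0.45 beside 0.78 to 1.05, and in mature oligodendrocyte-like cells, at 0.62 beside 1.04 to 1.37. In Lyz2 Clec7a macrophage-like cells the ratio was 1.75 in library 4, 1.05 in library 5 and 0.93 in library 6.

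**Figure D4:**
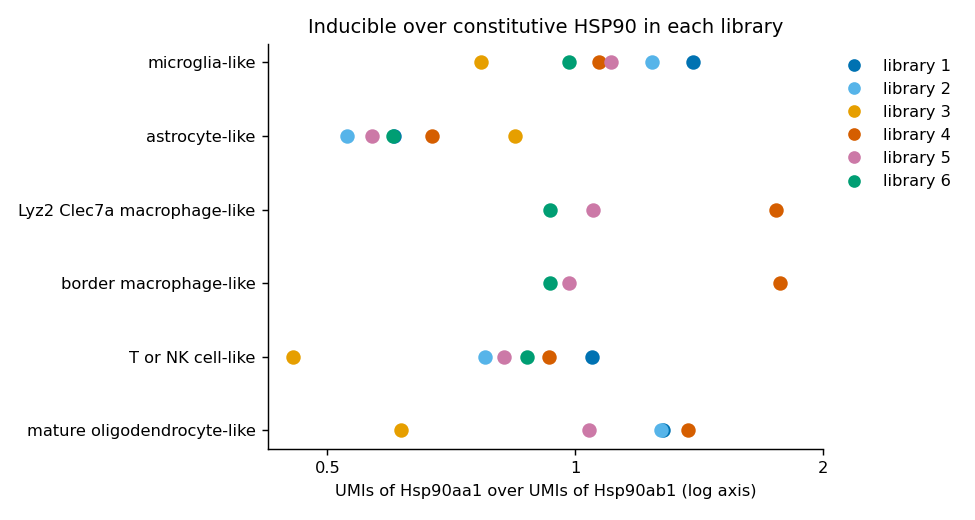
Ratio of Hsp90aa1 to Hsp90ab1 UMIs (log axis) in each library with at least 50 cells of the class. Library 3 is lowest in microglia-like, T or NK cell-like and mature oligodendrocyte-like cells (0.77, 0.45 and 0.62) and highest in astrocyte-like cells (0.85).

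Within microglia-like cells the genes were spread unevenly over cells. After thinning to 2000 UMIs, 59.0% of 19937 microglia-like cells had no Hspb1 UMI, 15.4% had 5 or more, and the 10% of cells with most held 61.7% of its UMIs. For Dnajb1 42.4% of cells had none, 14.6% had 5 or more, and the 10% with most held 44.3%. Hspa5 was more even, with 26.7% of cells without a UMI, 4.77% with 5 or more and 31.0% in the 10% with most. In Lyz2 Clec7a macrophage-like cells Hspb1 was rarer still per cell, with 80.1% of cells without a UMI and 88.2% of UMIs in the 10% with most.

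The clusters of microglia-like cells differed in these genes within a library. They were formed from the same cells' genes, Dnajb1 and Hspb1 among them, so their differences are a description. In library 1 cluster 0 had 372 CPM of Dnajb1 and cluster 1 had 2274, at median depths of 6042 and 7109 UMIs. Hsp90aa1 was at 1977 and 7808 CPM, and Hspb1 at 439 and 2276 CPM, in the same clusters. In library 3 cluster 2 had 528 CPM of Dnajb1 and cluster 5, led by Ccl2, Cxcl2 and Tnf, had 1911. Clusters high in heat shock genes were high in immediate early genes too. These summed to 5441 and 23224 CPM in clusters 0 and 1 of library 1, and to 17115 and 48215 in clusters 2 and 5 of library 3. Over 5 libraries, the fold from the lowest to the highest cluster had a median of 7.76 for Dnajb1 (4.66 to 9.07), 7.15 for Hspb1 (4.66 to 11.1) and 4.31 for Hsp90aa1. For Hspa5 it was 1.28 (1.17 to 1.42). With the chaperone and immediate early lists left out of the clustering genes, the median folds were 8.08 for Dnajb1, 6.06 for Hspb1 and 1.35 for Hspa5.

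**Figure D5:**
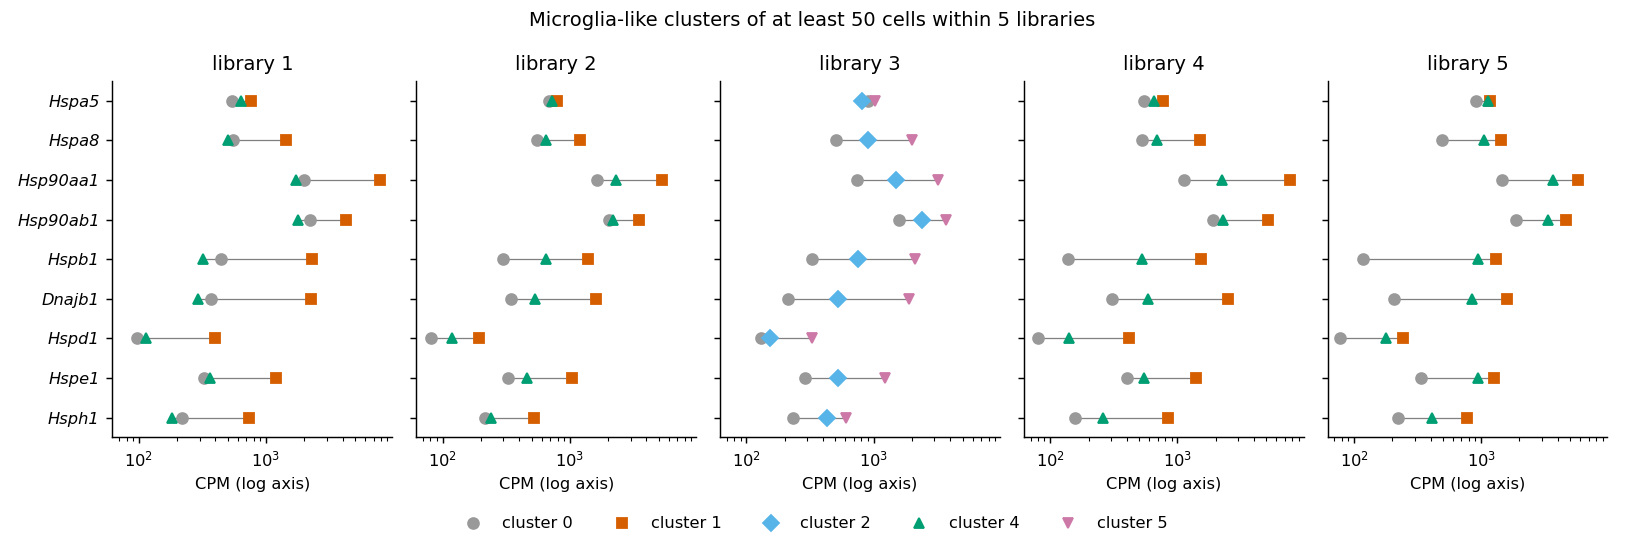
Level of each gene in the microglia-like clusters of at least 50 cells within libraries 1 to 5, in CPM on a log axis; grey lines join the lowest and the highest cluster. Dnajb1 and Hspb1 span the widest intervals and Hspa5 the narrowest in each library (median folds of 7.76, 7.15 and 1.28).

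Microglia-like cells with a Dnajb1 UMI also held more of each other member. In thinned microglia-like cells, the mean of Hspb1 in cells with a Dnajb1 UMI was 2.20 to 4.46 times that in cells without, with a median of 3.61 over 6 libraries. The median ratio was 2.95 for Hsp90aa1, 2.52 for Hsph1, 2.38 for Hspe1, 2.19 for Hspd1, 1.97 for Hspa8 and 1.64 for Hsp90ab1. Hspa5 had the smallest ratio, at 1.20 (1.14 to 1.29). In astrocyte-like cells the median was 1.49 for Hspb1 (0.92 to 3.91), 1.27 for Hsph1 (0.75 to 2.61) and 0.92 for Hspa5 (0.83 to 1.02). There it was near 1 for Hspa8 and Hsp90aa1 (1.06 each), Hsp90ab1 (1.04) and Hspe1 (1.03), and 0.88 for Hspd1. For Hspb1 in astrocyte-like cells, the highest ratio, 3.91, was that of library 4, and library 5 followed at 1.51. In library 4, astrocyte-like cluster 12, which carried microglia markers, held 538 CPM of Hspb1 and 668 CPM of Dnajb1. The part of that cluster in the ratio was not tested. For Hsph1 the ratio of 2.61 was that of library 1. Only 60 astrocyte-like cells of library 1 held a Dnajb1 UMI, with a mean of 0.17 Hsph1 UMIs. In Lyz2 Clec7a macrophage-like cells the medians over 3 libraries ran from 1.39 for Hspa5 to 2.36 for Hspb1. Before thinning, microglia-like cells with a Dnajb1 UMI in the thinned counts were the deeper ones in 5 of 6 libraries, with medians of 6681 and 4922.5 UMIs in library 4 as an example. The ratios describe cells within a library and are not replicated over animals.

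Across 38 sums of a class within a library, each of at least 50 cells, levels were correlated as log2(CPM + 10) over 9404 genes. The sums share libraries, depth and cell classes, so the values are descriptions. Hsp90aa1 and Hsp90ab1 were each other's closest gene (Pearson r 0.91). Dnajb1 was closest to Nfkbie (0.96), an inhibitor of NF-kappaB, Fyb1 (0.95) and Arhgap45 (0.94), and Hsph1 stood at place 11 (0.93). Tra2b (0.94) and Rps29 (0.94) were among the 5 genes closest to Hsph1, and Hspe1 was closest to Il21r (0.89), Arl4c (0.88) and Myc (0.88). Hspb1 was closest to Tm6sf1, Anxa3 and Ier3 (0.91 each), Hspa8 to Gpr132 (0.91), Fgl2 (0.89) and Dedd2 (0.88), and Hspd1 to Uspl1 (0.87). Hspa5 had the loosest nearest gene, Whamm (0.82), then Adrb1 (0.76), and correlated with the other 8 members at -0.02 (Hsp90aa1) to 0.47 (Hspe1).

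Other chaperone genes were counted from lists. Their counts stand beside the shares over all genes given above, 19.0% higher and 12.9% lower in astrocyte-like cells. Of 23 tested relatives and partners of HSP70, 3 were higher and 3 lower in astrocyte-like than in microglia-like cells, with a median log2 ratio of 0.37, a share of 3 in 23 each way that is at or near those of all genes. Dnajb4, an HSP40, was at 253 CPM in microglia-like and 13.2 CPM in astrocyte-like cells (log2 -3.50). Hspa4l, an HSP110 relative, was at 2.60 and 72.9 CPM (log2 2.72). Of 13 HSP90 cochaperones, 1 was higher (Sgta, 1.06) and 0 lower. Of 13 genes of the cytosolic chaperonin and prefoldin, 0 were higher and 0 lower, with a median of -0.01. Of 15 mitochondrial chaperones and proteases, 1 was higher, Hspa9 (63.7 CPM in microglia-like and 157 in astrocyte-like cells), which encodes mitochondrial HSP70, and 0 were lower. Of 3 other small heat shock proteins tested, Hspb6 was higher (1.75) and Hspb2 lower (-1.21). This list, which includes Cryab, summed to 5123 CPM in mature oligodendrocyte-like cells and 62.5 in microglia-like cells, against the order of Hspb1. Of 3 genes tested in the heat shock factor list, which holds Hsbp1 besides the factors, Hsf2 was higher (1.03).

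Hspa1a and Hspa1b, the inducible HSP70 genes, were not analysed here.

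The endoplasmic reticulum list, counted without Hspa5, held genes that differed where Hspa5 did not. Of 23 tested, 6 were lower in astrocyte-like than in microglia-like cells (12.9% of all genes) and 2 higher (19.0% of all genes), with a median log2 ratio of -0.64. Sdf2l1, a partner of BiP, was at 322 CPM in microglia-like and 34.4 in astrocyte-like cells (log2 -2.90), and Selenos, of the degradation pathway, at 187 and 410 (log2 1.09). In Lyz2 Clec7a macrophage-like cells 8 of the 23 were lower than in microglia-like cells and 0 higher, beside 4.14% and 4.34% of all genes, with a median of -0.87. Pdia4, a disulfide isomerase, was at 125 CPM in microglia-like and 30.0 in the macrophage-like cells (log2 -1.75). Of the other lists in this comparison, HSP70 relatives had 1 higher (Bag3, 1.15) and 0 lower, HSP90 cochaperones 1 higher (Fkbp5, 1.00) and 0 lower, and the mitochondrial, chaperonin, small heat shock protein and factor lists 0 in either direction. Fkbp5 was at 70.4 CPM in the macrophage-like cells, nearly all of which came from libraries 4, 5 and 6. Microglia-like cells of those libraries had 68.3, 75.4 and 93.3 CPM. Those of libraries 1, 2 and 3 had 10.9, 21.0 and 25.4 CPM. The ratio of Fkbp5 thus compares libraries and classes together. Of 20 genes known to be induced through HSF1, members included, 8 were lower and 1 higher in astrocyte-like cells (median -0.70). The 8 include the 5 lower members reported above. In the macrophage-like cells 2 were higher, Hsph1 among them, and 1 lower, Hspb1 (median 0.31). The counts of this list thus largely repeat those of the members. The pair of CCAAT and CCACG stood in 6 of 22 promoters of the endoplasmic reticulum list. GAANNTTC stood in 1 of those 22, and in 10 of 18 of the HSF1 list, the 6 members that carry it included.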

How the data were processed

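UMI counts were used as deposited, unscaled integers of at most 6655 in 30452 genes and 58078 barcodes, with 46853113 to 62094407 UMIs in each of 6 libraries. It was written by Cell Ranger 7.0.0, per the file headers. The submitters' processing notes name the build mm10, a mouse build, while the gene identifiers are rat Ensembl identifiers. The annotation version, depth equalization, intron counting and the treatment of reads that match several genes were not given in the sources used here. Several members have processed copies elsewhere in the genome, so their counts are uncertain to that extent.

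Barcodes with at least 500 UMIs, 200 genes and at most 20% mitochondrial UMIs were kept (48704). Of these 3904 (8.02%) were removed as likely doublets, scored against simulated pairs, which is incomplete. RNA of other cells was not removed. Leiden clusters (resolution 1, 15 neighbours, 30 components of 2000 variable genes) were named "X-like" where the mean log2 ratio of a class's markers to the median cluster reached 1 and exceeded that of any other class by 0.5, with at least 3 markers past 1 and present in 10% of cells. These names were rebuilt here. UMIs were summed per class, with exact 95% Poisson intervals, and shares of cells were taken after thinning to 2000 UMIs. Intervals cover counting error only. The members and lists were chosen with earlier results of these data known.

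Named besides the members are at most 4 genes a list, those with the largest log2 ratios between classes or libraries, and for each member up to 5 genes most correlated with it. Some genes in lists were not analysed here. Not all of the correlated genes are reported here. Irradiated and control animals were not compared, since libraries could not be tied to samples. The scripts were tested on simulated data. Alternatives changed the mitochondrial limit, doublets, naming, clustering, scaling, the CPM added, the filter, weights and libraries. Clustering used leidenalg 0.10.2, python-igraph 0.11.9 and scikit-learn 1.9.0, tables pandas 2.3.3, NumPy 2.4.6 and SciPy 1.17.1 under Python 3.11.15, and plots matplotlib 3.10.9.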

Additional observations from a re-analysis of the deposited data

Results flagged for a closer look

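In 4 of 18 sets of 6 library values (9 genes in microglia-like and in astrocyte-like cells), 1 library stood far from the other 5 by Dixon's criterion. Chance meets that criterion in about 1 of 20 independent sets. These sets share the same 6 libraries, and the share over all genes is not given, so no excess is read from the count. All 4 were in astrocyte-like cells. Library 3 was lowest for Hspa5, at 374 CPM with the next library at 756, and for Hsp90ab1, at 733 CPM with the next at 1258. Library 4 was highest for Dnajb1, at 173 CPM with the next at 87.3, and for Hsph1, at 59.5 CPM with the next at 42.7. Without cluster 12, which carried microglia markers, library 4 held 85.1 CPM of Dnajb1 and 43.9 of Hsph1.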

How the results depend on the processing

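Over 20 alternatives, the counts of 5 genes lower and 0 higher in astrocyte-like than in microglia-like cells did not move. The sign of each gene's log2 ratio in that comparison was kept in 20 of 20 settings except for Hspa5 (14 of 20, -0.27 to 0.15). Against microglia-like cells, Lyz2 Clec7a macrophage-like cells kept the signs in 20 of 20 except for Hspd1 (19 of 20). The count of 1 gene higher there was 0 with a mitochondrial limit of 10%, with doublets kept, with cells named by the highest score of markers and with 50 CPM added, and 0 to 1 with a library left out. The count of 1 gene lower was 0 with the highest marker score, with the mean of each cell's CPM, with libraries weighted equally and with libraries 4, 5 and 6 alone, a setting chosen after seeing the data, and 0 to 1 with a library left out. In microglia-like cells the 2 genes that ranged widely over libraries became 6 with a mitochondrial limit of 10%, 7 with the chaperone and immediate early lists left out of clustering, 4 with the highest marker score and 4 with median-of-ratios scaling, and 1 to 2 with a library left out. In astrocyte-like cells the 4 became 2 to 4 with a library left out. In Lyz2 Clec7a macrophage-like cells the 4 became 2 with median-of-ratios scaling and 0 to 4 with a library left out, all chosen after seeing the data. The cause was not tested. Single-gene values moved beyond their counting interval or library spread in 243 of 360 log2 ratios. Counted as moved were also 26 shares of cells, against 1 that was not, and 126 log2 ranges, against 360 that were not. No paired analysis was possible because the libraries could not be tied to the labelled samples, so that the replicate numbers of control and irradiated rats pair no libraries. Classes of the same library were set side by side within it.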

Other observations

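Fkbp5 encodes an HSP90 cochaperone that glucocorticoids are known to induce. In microglia-like cells it was at 10.9, 21.0, 25.4, 68.3, 75.4 and 93.3 CPM from library 1 to library 6, the widest range of the HSP90 cochaperone list. Calr, a chaperone of the endoplasmic reticulum, was at 1541, 1625, 537, 1404, 1631 and 1525 CPM in the same order, with library 3 lowest. Ubb, which encodes ubiquitin, was at 2150, 2403, 5886, 2027, 2976 and 2724 CPM, with library 3 highest. Bag3, a cochaperone of HSP70, was at 166, 54.3, 140, 107, 98.6 and 92.1 CPM, with library 2 lowest. The libraries drew their microglia-like cells from different clusters, and the part of clusters in these values was not tested.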
